A study of Mus musculus with 8 samples.

Results

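The granins and prohormone processing genes are a set of 10 mouse genes, Chga, Chgb, Scg2, Scg3, Scg5, Pcsk1, Pcsk2, Cpe, Resp18 and Vgf, chosen by name. A member was measured when the platform annotation gave a probe set that symbol and no other, which held for 9 of the 10, each with a single probe set, among 19938 named genes in all. The expression of Pcsk2 was not analysed here, and only its upstream sequence was. Expression was measured in pancreatic buds of mouse embryos on Affymetrix arrays, in 4 pools of RNA. The VEGF pool held fresh e12.5 buds of 3 embryos with the genotype Pdx1-tTA; TET-VEGF, in which a transactivator under the Pdx1 promoter drives a VEGF transgene. The control pool held fresh e12.5 buds of 3 littermates with Pdx1-tTA alone, so the transactivator was common to both. The other two pools came from wild type e12.5 buds, explanted and cultured for 2 days with VEGFR2i, an inhibitor of VEGF receptor 2 that the labels do not name further, or with vehicle, 5 per pool. The endothelial genes of the explants go against these labels, since Cdh5, a cadherin of endothelial junctions, was 17.1-fold higher in the pool labelled VEGFR2i, so every direction between the explant pools follows the labels and would turn if they were exchanged. Each pool was hybridized to 2 arrays, the second as a technical repeat. A condition is thus 1 pool, the ranges given here over pairs of arrays (n = 2 arrays per pool) are technical, and no test of a condition was possible.

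Endocrine cells and neurons store peptide hormones in dense-core granules until a signal releases them. Granins are acidic proteins that aggregate with hormones and help to form these granules. Hormone precursors are cut there at pairs of basic residues by the convertases of Pcsk1 and Pcsk2, and carboxypeptidase E, the product of Cpe, trims the basic residues that remain. In the pancreas these genes mark islet cells and their precursors, which at the stage of these buds are mostly early glucagon cells and cells leaving the progenitor epithelium.

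Levels are log2 expression, and a difference is between pool means, followed in brackets by its range over the 4 pairs of arrays. A gene was called higher or lower where its pool means were 1.5-fold or more apart and the arrays of the pools did not overlap. In the VEGF buds 6 of the 9 measured members were lower than in control buds and none was higher, where 0.933% of all genes were lower and 0.552% higher. Scg3, Chga and Chgb had the largest decreases, each over 3-fold. With a 2-fold rule 4 members were lower (0.191% of all genes, and 0.0602% were higher), and with a looser rule of 0.32 on the log2 scale 7 were (2.76% of all genes, and 2.4% were higher). Between the explant pools no member was higher or lower by the same rule. In the vehicle explants 7 of 9 members were higher than in control buds, where 17.9% of all genes were higher and 4.08% lower. The plot of levels by array shows these values for each member.

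**Figure D1:**
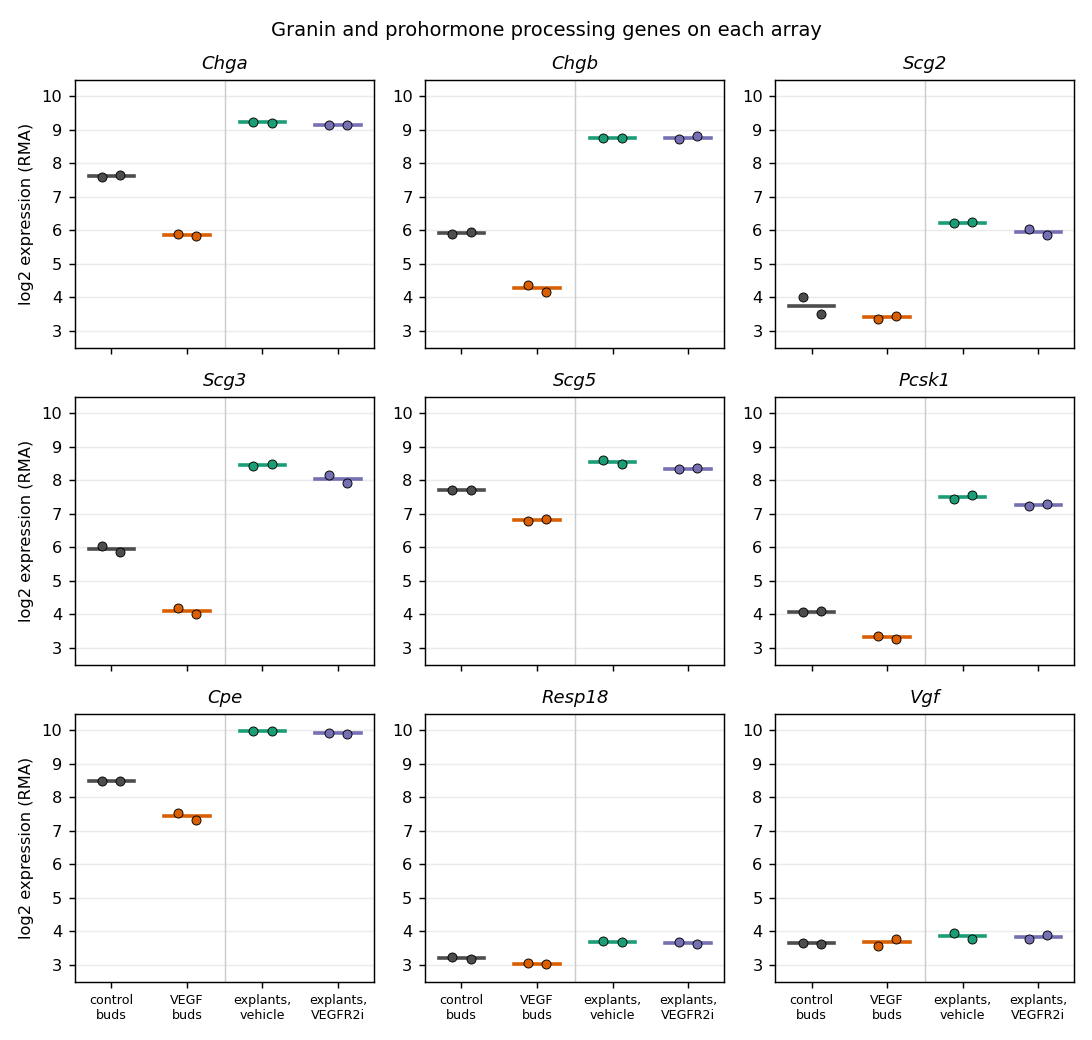
Log2 expression of the 9 measured members on each of the 8 arrays, with points for arrays and bars for the mean of the 2 arrays of a pool. Chga, Chgb, Scg3, Scg5, Pcsk1 and Cpe lie lower in the VEGF buds than in control buds, and both explant pools lie above both fresh pools for every member but Vgf, where arrays of VEGF buds and explants overlap.

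The upstream sequences of these genes were searched for motifs. Whether a motif had a part in the lower levels in VEGF buds was not tested. RefSeq windows of 250 bases before the start site (build GRCm38.p6) matched 8 of the 10 members by symbol. Cpe, which was lower in VEGF buds, and Vgf had no window. Granin and convertase genes are known targets of the cAMP response element, written TGACGTCA, which reads the same on both strands. That element stood in the windows of Chgb, Scg2 and Pcsk1, 3 of 8 member windows, and in 1.55% of the 32851 windows of the table. Its core TGACG, which the full element contains on both strands, stood on either strand in 7 of 8 member windows, all but that of Resp18, and in 17.8% of all windows. In the 5 windows below, written 5′ to 3′ on the strand of the gene, capitals mark TGACG and its reverse complement. They lie at chr12:102554691-102554940 (plus strand) for Chga, chr2:132781392-132781641 (plus strand) for Chgb, chr9:75684057-75684306 (minus strand) for Scg3, chr1:79440027-79440276 (minus strand) for Scg2 and chr13:75089607-75089856 (plus strand) for Pcsk1. Chga and Scg3 carry the core without the full element. The window of Scg5, which was lower in VEGF buds, is not printed, and that of Scg2, which was not called, is.
Chga: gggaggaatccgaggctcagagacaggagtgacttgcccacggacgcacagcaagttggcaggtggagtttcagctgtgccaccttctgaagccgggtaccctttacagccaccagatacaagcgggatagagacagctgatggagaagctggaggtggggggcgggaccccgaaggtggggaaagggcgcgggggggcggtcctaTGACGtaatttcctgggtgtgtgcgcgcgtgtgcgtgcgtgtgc
Chgb: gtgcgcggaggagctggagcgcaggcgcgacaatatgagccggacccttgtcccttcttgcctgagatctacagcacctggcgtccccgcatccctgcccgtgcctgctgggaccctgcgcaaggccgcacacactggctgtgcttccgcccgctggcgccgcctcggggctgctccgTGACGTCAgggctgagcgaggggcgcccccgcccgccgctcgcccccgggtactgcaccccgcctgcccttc
Scg3: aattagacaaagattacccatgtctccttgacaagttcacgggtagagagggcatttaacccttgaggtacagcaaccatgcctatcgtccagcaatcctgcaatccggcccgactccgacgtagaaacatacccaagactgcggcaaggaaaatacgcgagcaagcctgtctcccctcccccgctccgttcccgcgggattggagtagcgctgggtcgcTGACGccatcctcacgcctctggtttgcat
Scg2: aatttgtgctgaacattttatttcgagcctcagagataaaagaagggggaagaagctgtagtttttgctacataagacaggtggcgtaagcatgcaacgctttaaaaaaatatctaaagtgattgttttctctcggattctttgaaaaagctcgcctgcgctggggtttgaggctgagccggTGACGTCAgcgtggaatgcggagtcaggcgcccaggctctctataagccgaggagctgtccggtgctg
Pcsk1: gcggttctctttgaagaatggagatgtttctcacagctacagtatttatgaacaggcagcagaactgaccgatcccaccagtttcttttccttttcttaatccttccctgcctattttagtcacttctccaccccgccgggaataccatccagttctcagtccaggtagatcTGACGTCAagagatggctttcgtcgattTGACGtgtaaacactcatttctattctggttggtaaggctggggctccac

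The full element began 72 bases before the start site of Chgb, 68 before that of Scg2 and 78 before that of Pcsk1. Pcsk1 held a second core, 50 bases before its start. The cores of Chga and Scg3 began 44 and 30 bases before the start. Counted from the start site, the only core of Scg5 lay at -175, further off than that of any other member. The core of Pcsk2, on the opposite strand, lay at -34. E-boxes (CANNTG, which reads the same on both strands) stood in 6 of 8 member windows and in 66.2% of all windows, and the E-box CAGATG, a form bound by Neurog3 and Neurod1, stood on neither strand of any member window, against 14.4% of all windows. The letters TTCAGCACC, a piece of the site bound by the repressor REST, stood on neither strand of any member window and in 0.301% of all windows. The letters TATAAA stood in no member window and in 12.4% of all windows, on either strand. A match is a match of letters and not a binding site, and members with the full element were found among those lower in VEGF buds (Chgb, Pcsk1) and among those short of the size rule (Scg2).

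**Figure D2:**
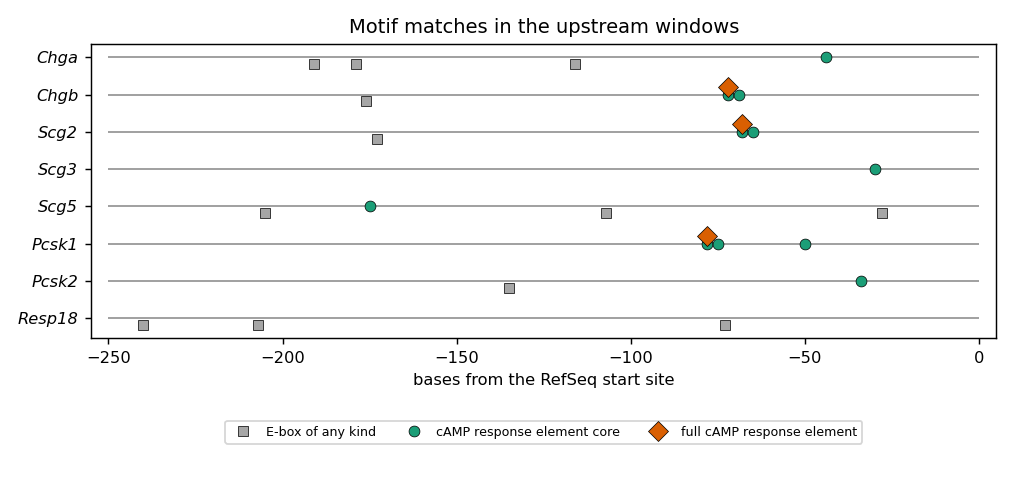
Positions of motif matches in the 8 member windows, as bases from the RefSeq start site to the first base of the match. The full element lies between 78 and 68 bases before the start in Chgb, Scg2 and Pcsk1, and the window of Resp18 holds E-boxes without the core.

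The first comparison asked what VEGF added in the Pdx1 territory did to these genes in the fresh bud. Among the granins, Chga, the chromogranin A gene and a general marker of endocrine cells, was at 7.60 and 7.66 on the 2 arrays of the control pool and at 5.89 and 5.84 on those of the VEGF pool. The difference was -1.76 [-1.81, -1.71], a 3.39-fold lower level. Chgb, which encodes chromogranin B of the same granules, was at 5.89 and 5.96 in control buds and at 4.37 and 4.17 in VEGF buds, a difference of -1.65 [-1.79, -1.51] or 3.15-fold. Scg3, whose product tethers chromogranin A to the granule membrane, was at 6.03 and 5.87 against 4.20 and 4.00. Its difference of -1.85 [-2.03, -1.67], or 3.60-fold, was the largest of the 9 members, and only 5 of all 19938 genes had a more negative one. The 2 arrays of a pool lay close together for these 3 genes, and the pools were separated by several times the gap between arrays.

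Scg2, the precursor of secretoneurin, was near the dim end of the array in both fresh pools. Its control arrays read 4.02 and 3.50 and its VEGF arrays 3.35 and 3.46. The difference of -0.35 [-0.67, -0.03] did not reach the size rule, though without the lower control array it was -0.61 and did. The gap of 0.52 between the 2 control arrays was the largest array gap of any member in any pool, where the median gap was 0.07. Vgf, a secreted neuronal and endocrine precursor induced by growth factors, stood at 3.67 and 3.63 in control buds and 3.56 and 3.78 in VEGF buds, so that the pools overlapped. Resp18, whose product is a granule lumen protein related to Ptprn, differed by -0.17 [-0.23, -0.12], at 3.04 against 3.21. The lower quartile over all genes was 3.26 in both fresh pools, so Resp18 lay under it in both, and Scg2 and Vgf lay just above it.

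The processing enzymes and their chaperone were lower as well, by smaller folds. Cpe was at 8.49 and 8.51 in control buds and 7.53 and 7.34 in VEGF buds, a difference of -1.06 [-1.17, -0.96] or 2.09-fold. Scg5 encodes the 7B2 protein, the chaperone that the convertase of Pcsk2 needs to mature. It was at 7.71 and 7.72 against 6.79 and 6.84, a difference of -0.90 [-0.93, -0.87] or 1.87-fold. Pcsk1, the gene of the convertase that opens most prohormones of the regulated pathway, was at 4.06 and 4.10 against 3.36 and 3.27. Its difference of -0.765 [-0.83, -0.70], or 1.70-fold, was the smallest of the 6 called lower. In VEGF buds Pcsk1 lay near the lower quartile of all genes, 3.26, so the dim end of the array may limit its fold. In 8 of the 9 members, all but Vgf, both VEGF arrays lay below both control arrays, as they did for 21.6% of all genes, and they lay above in no member and in 23.7% of all genes. The median difference of the 9 members was -0.90, against 0.00 over all genes.

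**Figure D3:**
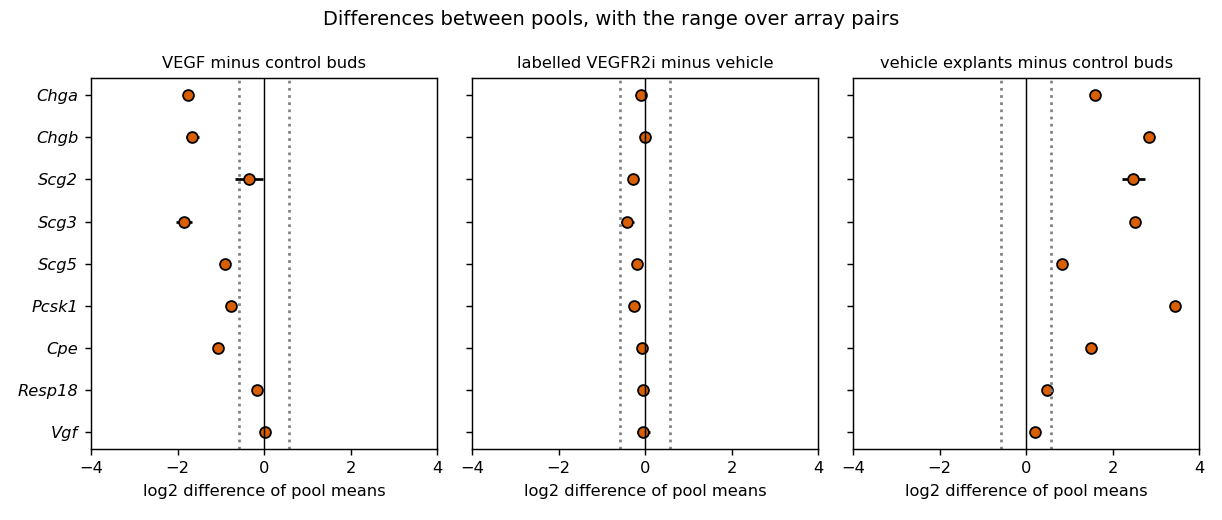
Differences of pool means for each member in 3 comparisons, on the log2 scale, with lines for the range over the 4 pairs of arrays and dotted lines at 1.5-fold. The 6 members left of the lower line in the buds lie near 0 between the explant pools, where the most negative difference is -0.41, and up to 3.43 above 0 between vehicle explants and control buds.

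Other genes of the pathway were compared by role. Of 7 measured genes for further processing enzymes and granin-like proteins, Ptprn2, Ptprn and Pcsk1n were lower in VEGF buds and none was higher, with a list median of -0.54. Ptprn2 and Ptprn, receptor-like proteins of the granule membrane, differed by -1.55 (4.37 against 5.92) and -1.04 (4.95 against 5.99). Pcsk1n, whose product inhibits the convertase of Pcsk1, differed by -0.62, at 6.90 against 7.52. Pam, the enzyme that amidates peptide ends, was at 8.20 against 8.74 and just short of the size rule, while Qpct (3.40 against 3.43), Cpd (8.70 against 8.58) and Ctsl (8.34 against 8.30) lay within 0.12 of their control levels. Of 13 convertases and carboxypeptidases of other routes, Cpn1 was lower by a difference of -0.73, Cpz was higher by 0.62, and the median was 0.03. Furin, the convertase of the constitutive route, was at 7.58 against 7.63.

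Genes of granule membrane and exocytosis had 3 of 27 members lower, none higher and a median of -0.09, which was -0.21 over the 14 at or above the median level. These were Baiap3 (-1.10) and Cadps (-0.96), both of which act in the release of dense-core granules, and Rph3al (-0.72), a partner of granule Rab proteins. A gene's level for this split was its mean over all 8 arrays, so a gene dim in fresh buds could pass by its level in explants. Of 21 prohormone genes, the substrates of these enzymes, 5 were lower and 0 higher, and the median was -0.14, or -0.71 over the 9 at or above the median level of all genes. Cck differed by -1.65 (4.13 against 5.78), Pyy by -1.52 (8.61 against 10.1), Gcg by -1.37 (10.7 against 12.1) and Ghrl by -0.79 (5.56 against 6.35). Among 16 transcription factors of the endocrine lineage the median was -0.57 (-0.85 over the 13 at or above the median level) and 8 were lower, with none higher, led by Neurog3 at -2.63, Rfx6 at -1.79, Neurod1 at -1.58 and Pou3f4 at -1.50. None of 8 genes of the REST repressor complex was called, their median was 0.04, and Rest was at 8.59 in both fresh pools.

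The VEGF and control pools also differed in markers of other cells. Genes of the pancreatic epithelium had a median of -0.60, with 13 of 23 lower and none higher, and their summed level over arrays was 12.29 to 12.33 (log2) in VEGF buds and 12.88 to 12.90 in control buds. Acinar enzyme genes were lower in 5 of 16 and higher in none, with a median of -0.07, or -0.70 over the 10 at or above the median level. The largest of these differences, -2.07 in Ctrb1, -1.87 in Clps and -1.72 in Pnliprp1, were of the size seen in Scg3, Chga and Chgb. The summed acinar level was 11.13 to 11.19 in VEGF buds and 12.17 in both control arrays. All sums were taken over unlogged levels, so the brightest genes weigh most. Among these are Cpa1, at 11.7 in control buds, and the red cell gene Hbb-y, at 12.1. Progenitor genes were lower in 5 of 16 and higher in none (median -0.45), with summed levels of 10.81 to 10.86 and 11.30 to 11.32. Endothelial genes were higher in 7 of 20 (median 0.53), with summed levels of 12.52 to 12.55 and 11.93 to 11.94. Red cell genes were higher in 7 of 14 (median 0.58), with summed levels of 13.05 to 13.07 and 12.48 to 12.51. Genes of neurons and neural crest, cells that also express granins, had 3 of 20 lower, 1 higher and a median of -0.04, with summed levels of 11.07 to 11.10 and 11.18 in both control arrays. These values moved beside the members, and their part in the result was not tested. In bulk RNA, fewer cells of a type and less RNA per cell cannot be told apart.

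**Figure D4:**
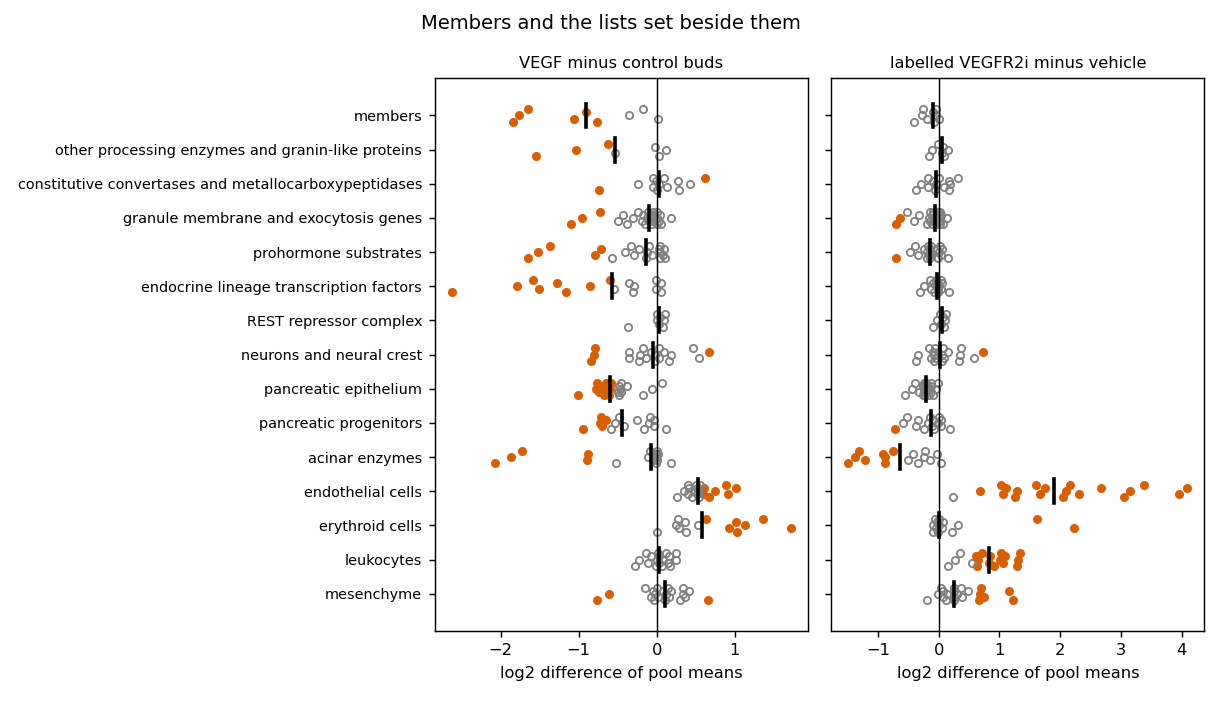
Log2 differences of pool means for the members and for 14 other gene lists, with 1 point per gene, filled where the size rule was met, and black bars at list medians. In the buds the members have a median of -0.90, below the -0.60 of the epithelium and -0.57 of the endocrine transcription factors, while between the explants their median is -0.08 and that of endothelial genes is 1.89.

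Set against the median of the epithelial genes, the members separated. Scg3 was lower than that median by a further -1.25, Chga by -1.16 and Chgb by -1.06, so that each was at least 2.08-fold below it. Cpe was -0.47 from it, Scg5 -0.30 and Pcsk1 -0.17, all within 1.5-fold. Scg2 (0.25), Resp18 (0.42) and Vgf (0.62) lay above it. All of these were near the dim end of the array in both fresh pools, as Pcsk1 was in VEGF buds. A decrease of the size of the epithelial median may not show there. Against the median of the endocrine transcription factors the same 3 granins lay lower, by -1.27 for Scg3, -1.19 for Chga and -1.08 for Chgb. That median was -0.57 over 16 factors, of which 8 were called lower and 8 were not. It was -0.85 over the 13 at or above the median level. The granins did not stand apart from the factors that fell most, Neurog3 (-2.63), Rfx6 (-1.79), Neurod1 (-1.58) and Pou3f4 (-1.50).

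The explants addressed the opposite case, an inhibited VEGF receptor 2 during culture. The pool labelled VEGFR2i was higher in 19 of 20 endothelial genes, and Cdh5 was at 8.66 there and 4.56 in the pool labelled vehicle. Leukocyte genes were higher in 14 of 18 and mesenchymal genes in 6 of 21, acinar enzyme genes were lower in 8 of 16, and all 23 epithelial genes had negative differences, with a median of -0.21.

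No member was called between the explant pools, where 0.371% of all genes were lower and 1.82% higher. Scg3 had the largest difference, at 8.16 and 7.94 in the pool labelled VEGFR2i and 8.42 and 8.49 in the pool labelled vehicle. This was a difference of -0.41 [-0.55, -0.26], or 1.33-fold, and the arrays of the pools did not overlap. Chga was at 9.13 and 9.16 against 9.24 and 9.22, and Chgb at 8.72 and 8.82 against 8.76 and 8.77, so the differences of both chromogranins were small, -0.08 and 0.00. Pcsk1 differed by -0.25 [-0.33, -0.17], at 7.26 against 7.52, and Scg2 by -0.28 [-0.38, -0.18], at 5.95 against 6.23. Scg5 differed by -0.20 [-0.29, -0.10] and Cpe by -0.08 [-0.11, -0.04]. Resp18 and Vgf were at 3.65 and 3.82 against 3.70 and 3.86, with overlapping arrays. In 6 members, Chga, Scg2, Scg3, Scg5, Pcsk1 and Cpe, both arrays labelled VEGFR2i lay below both vehicle arrays, as in 25% of all genes. Both lay above in no member and in 25.9% of all genes. The median difference of the 9 members was -0.08. Relative to the epithelial median, the members lay between -0.20 for Scg3 and 0.22 for Chgb.

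Few other genes of the pathway were called. None of the 7 further processing genes and none of the 13 other convertases and carboxypeptidases was called. Of 27 granule membrane and exocytosis genes, the zinc transporter of insulin granules Slc30a8 (-0.70) and the Rab protein Rab3d (-0.64), which is also found on zymogen granules, were lower. Of 21 prohormone genes, Npy was lower by a difference of -0.69, and none of the 16 endocrine transcription factors was called. The difference between the bud comparison and the explant comparison was not tested, since each rests on 1 pool per condition. For Chga the differences were -1.76 and -0.08, for Chgb -1.65 and 0.00, for Scg3 -1.85 and -0.41, for Cpe -1.06 and -0.08, for Scg5 -0.90 and -0.20 and for Pcsk1 -0.765 and -0.25.

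**Figure D5:**
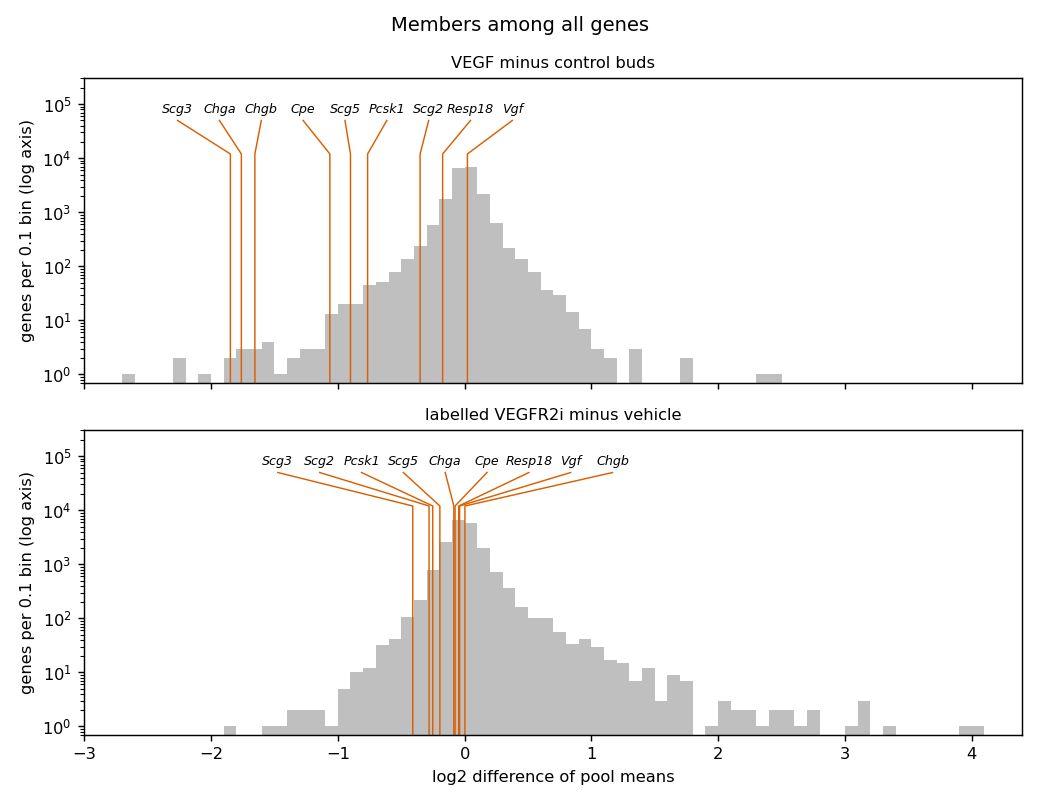
Distribution of log2 differences of pool means over all 19938 genes, in bins of 0.1 with a log axis for the number of genes, and lines at the 9 members. In the buds Scg3, Chga and Chgb lie far into the lower tail, at -1.85, -1.76 and -1.65, and between the explants every member lies between -0.41 and 0.00.

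Levels were also set across the fresh and cultured buds. The sets may have been normalized separately, and the median difference over all genes was 0.17. The buds of the explants were wild type and 2 days further on, and the control buds carried Pdx1-tTA. Genotype, culture and developmental time thus cannot be told apart. Pcsk1 showed the largest gap, with 7.46 and 7.57 in vehicle explants against 4.06 and 4.10 in control buds, a difference of 3.43 [3.36, 3.51] or 10.8-fold. Chgb followed with 2.84 [2.80, 2.88], Scg3 with 2.505 [2.39, 2.62] and Scg2 with 2.47 [2.20, 2.74]. Chga was higher by 1.60 [1.56, 1.64], Cpe by 1.49 [1.47, 1.51] and Scg5 by 0.83 [0.76, 0.91]. After quantile normalization of the 8 arrays together Scg5 differed by 0.53 and was no longer called. Resp18 and Vgf differed by 0.48 and 0.21 and were not called, and the sign for Vgf turned to -0.0041 after centring of the arrays on their medians. With the pool labelled VEGFR2i in place of vehicle, the same 7 members were higher than in control buds, by 3.18 in Pcsk1, 2.84 in Chgb, 2.10 in Scg3, 2.19 in Scg2, 1.52 in Chga, 1.42 in Cpe and 0.64 in Scg5, where 17.7% of all genes were higher and 2.52% lower. Of all genes called for vehicle against control, 81.5% were higher in vehicle explants, and that share was 64.0% after centring and 57.0% after quantile normalization.

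The gain was uneven among the members. Pcsk1, a gene near the dim end of the array in fresh buds, had 1.82 more than the epithelial median of 1.61, and Chgb, Scg3 and Scg2 had 1.23, 0.90 and 0.87 more. Chga and Cpe were within 0.12 of the epithelial median, and Scg5 was -0.77 from it. Of the 7 further processing genes 5 were higher, among them Ptprn2 (2.22), Ptprn (1.08), Ctsl (1.00) and Pam (0.94). Genes of granule membrane and exocytosis were higher in 23 of 27 and lower in 1. Prohormone genes were higher in 11 of 21, including the islet genes Iapp (5.36), Ins2 (5.36) and Sst (3.98), and lower in 1. Of 20 genes of neurons and neural crest 11 were higher and 3 lower, with Tubb3, a neuronal tubulin that is also expressed in endocrine precursors, at 7.68 against 3.89. Their summed level was 11.37 to 11.42 in vehicle explants and 11.18 in control buds. Other cell types differed widely between vehicle explants and control buds. Acinar enzyme genes were higher in 14 of 16 (median 3.73), progenitor genes in 13 of 16 (median 1.22) and epithelial genes in 22 of 23. Endothelial genes were lower in 20 of 20 (median -2.51). Leukocyte genes were lower in 7 of 18 and higher in 2, and red cell genes lower in 6 of 14 and higher in 1. Mesenchymal genes were lower in 7 of 21 and higher in 3. For mesenchyme the summed level was 14.06 to 14.10 in vehicle explants and 13.92 to 13.93 in control buds. Summed epithelial levels were 14.35 to 14.37 in vehicle explants and 12.88 to 12.90 in control buds, and summed endothelial levels 9.29 to 9.36 and 11.93 to 11.94. The part of these cells in the members' values was not tested.

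Across the 4 pools, the order from low to high was VEGF buds, control buds, explants labelled VEGFR2i and vehicle explants in Chga, Scg2, Scg3, Scg5, Pcsk1, Cpe and Resp18. The arrays of neighbouring pools did not overlap, other than those of the explant pools in Resp18. For the step from fresh to cultured buds this was common, since both arrays of an explant pool lay above both control arrays in 67.8% of all genes for vehicle and in 67% for the pool labelled VEGFR2i, and below them in 16% and 14.2%. In Chgb the explant pools stood in the opposite order, 0.0026 apart and overlapping. Vgf had overlapping arrays at every step. The pool means ranged by 4.50 in Chgb (22.6-fold), 4.35 in Scg3, 4.20 in Pcsk1, 3.36 in Chga, 2.83 in Scg2, 2.56 in Cpe and 1.73 in Scg5, and by 0.66 in Resp18 and 0.21 in Vgf.

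Genes with the pattern most like a member's were found by the root mean square difference between their 4 pool means, each centred on its own mean, among the 2520 genes whose pool means ranged by at least 1. This held for 7 members. Nearest to Chga was Cck, a gut and islet peptide gene (0.08), followed by Abcc8, the sulphonylurea receptor of beta cells (0.17), and Kcnk16, an islet potassium channel (0.21). Nearest to Chgb were Rfx6, an endocrine transcription factor (0.16), Scg3 (0.27) and Neurod1 (0.27). The genes nearest to Scg3 were Rfx6 (0.15), Neurod1 (0.18) and Ptprn2 (0.20). Those nearest to Cpe were the endocrine transcription factor Nkx2-2 (0.04), Sytl5 (0.06) and the endocrine transcription factor Insm1 (0.09).

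The other three members had neighbours of other kinds. Scg2 was nearest to Kcnh1 (0.02), Tob1 (0.03) and Cracdl (0.05), Scg5 to Tmem132c (0.04), the receptor gene Erbb3 (0.05) and the plasma protein precursor Ambp (0.06), and Pcsk1 to the tight junction gene Cldn10 (0.11), Niban1 (0.14) and Akr1c12 (0.17). Another member stood among the 50 nearest genes for 4 of the 7 members, namely Chga, Chgb, Scg3 and Pcsk1. The 50 nearest of the 2520 genes held 5 of the 16 endocrine transcription factors for Chga, 6 for Chgb and 4 for Scg3. They held 3 each for Pcsk1 and Cpe, and 1 each for Scg2 and Scg5. Each pattern includes the step between fresh and cultured buds. Over the 2 within-set differences alone, the gene nearest to Chga was Rfx6 (0.03). Those nearest to Scg3 were the digestive enzyme genes Pnliprp1 (0.10) and Ctrb1 (0.20). The nearest gene was Slc38a5 for Chgb (0.0003), Rcan2 for Scg2 (0.005) and Celf3 for Cpe (0.02). It was the acinar enzyme gene Cpa1 for Scg5 (0.04) and the epithelial gene Spint1 for Pcsk1 (0.004).

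Checks of the whole series were as follows. The 2 arrays of a pool correlated at 0.997 to 0.998 over probe sets, and 4 to 25 genes differed by 1.5-fold between them. Array medians were 4.08 to 4.12 for fresh buds and 4.29 to 4.33 for explants. Vegfa was at 7.70 in VEGF buds and 7.43 in control buds, which is no check of the transgene, since nothing used here says whether its probe set covers the transgene. Of the defining genes of the early pancreas, Pdx1 was at 6.38 in VEGF buds and 6.96 in control buds, Sox9 at 8.25 and 8.95 and Cpa1 at 10.9 and 11.7, whereas Ptf1a was near the dim end in both, at 3.88 and 3.96.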

How the data were processed

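RNA of 4 pools of mouse pancreatic buds was hybridized to 8 arrays (Affymetrix mouse gene ST, version 1.0). Per the series' design text, the authors normalised and summarised probe sets with RMA (Partek 6.5) before they deposited log2 values. RMA fits the arrays of a run to a common distribution, which can hide a shift shared by most genes, and it compresses differences of dim genes. No source used here says whether both sets were run together. Values span 2.41 to 13.57, which fits a log2 scale.

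Of 35399 probe sets, 21789 had 1 gene symbol in the platform annotation, 1621 had several and 11989 were unnamed; 21698 matched a RefSeq table (GRCm38.p6) by Entrez ID and no symbol needed updating. The probe set with the highest mean stood for a gene. Arrays of a pool were averaged. With 1 pool per group no condition could be tested; the only p-values computed are those of the methods' t-test over arrays, an alternative given by its counts. The number of arrays, 2 per pool, limits the precision. Upstream windows were searched by exact match. Groups follow the labels. Named genes are the members, up to 4 called genes per list and comparison with the largest differences, the 3 genes most like each member (predicted genes left out), and checks of labels and tissue. Pam, Qpct, Cpd, Ctsl, Furin, Rest, Sox9, Cpa1 and Ptf1a were named after their values were seen. The members and lists were chosen with earlier results of these data known. Values were computed with Python 3.11.15, pandas 2.3.3 and scipy 1.17.1.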

Additional observations from a re-analysis of the deposited data

How the results depend on the processing

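The count of 6 members lower in VEGF buds was 4 at 2-fold (0.191% of all genes) and 7 at the looser rule of 0.32 (2.76%). It was 6 to 7 when a single array was left out, where 180 to 210 of all 19938 genes were lower. It stayed at 6 with all probe sets of a gene averaged (187 of 19938 genes lower), with arrays centred on their medians (164) and with quantile normalization (181). It was also 6 among genes at or above the median level, where 6 members were measured and 172 of 9969 genes were lower. That level was a mean over all 8 arrays. Pcsk1, at 4.08 in control buds and 3.32 in VEGF buds, passed by its levels in the explants, so this setting does not show that it was bright in fresh buds. The methods' t-test over arrays, which measures hybridization error alone, gave 6 members with 1.5-fold before adjustment. After Benjamini-Hochberg adjustment over all genes it gave 0, as it did for all genes. The share of all genes that passed before adjustment is not given here, so nothing is drawn from the count of 6. Between the explants the count of 0 became 1 at the looser rule of 0.32 (Scg3, with 1.83% of all genes lower) and stayed at 0 under the other settings, also without any single array. The 7 members higher in vehicle explants became 6 at 2-fold (7.76% of all genes higher), 8 at the looser rule of 0.32 (33.5%) and 6 after quantile normalization (9.88%), and were 7 against the pool labelled VEGFR2i, a setting chosen after seeing the data. The 3 members at least 1.5-fold below the epithelial median in VEGF buds were 3 or 4 under every setting tried. The 4 above it in vehicle explants became 2 at 2-fold. They became 3 among genes at or above the median level, where 6 members were measured. Among the members, signs turned for Vgf in all 3 comparisons and for Chgb between the explant pools, each where that gene itself was not called. Another member among the 50 nearest genes was found for 4 members, and for 6 over the 2 within-set differences. No paired analysis was possible because each group is 1 pool and the 2 arrays of a pool are technical repeats.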
